A study of Canis lupus familiaris with 5 samples.

Results

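The iNSLC library was compared with the library of the skin fibroblasts from which these cells were made, which is the first step of a reprogramming series in the dog. These are 2 of the 5 RNA libraries of the series, and the other 3 came from iPSC clones of the same animal, an adult dog named K9. The fibroblasts came from ear skin and were taken at passage 1, before any vector was given. The iNSLCs (induced neural stem cell-like cells) were taken at passage 2, and are the dome-shaped primary colonies that formed after fibroblasts had received the EP-B set of episomal vectors by electroporation and had been moved to mouse feeder cells in the NSM medium. That set carries OCT4, SOX2, KLF4, L-MYC and LIN28 of human origin, KLF2, NANOG, GLIS1 and KDM4D, a dominant-negative mouse Trp53 and EGFP. The iPSC clones (passage 9 for clone 1, passage 8 for clones 2 and 3) arose when such colonies were cultured in an embryonic stem cell medium. Each of the libraries compared stood alone for its stage, so their difference carried no replicate error and was not tested. The labels do not say whether the iNSLC library came from 1 colony or from several. They give it the number 1, as they do iPSC clone 1 and not clones 2 and 3, without saying whether this number marks a shared origin. Passage, medium, feeder cells and vectors differed together with the stage and cannot be told apart from it. In such bulk libraries, fewer cells of a type and less RNA per cell cannot be told apart either.

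Fibroblasts are the cells of connective tissue. They make large amounts of collagen and other matrix proteins. Neural stem cells carry another set of transcription factors, among them SOX2 and PAX6. During reprogramming, cells are known to shut down the program of the starting cell before a pluripotent program is in place. The question put to the data was which genes had left the fibroblast level when primary colonies had formed.

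The files name genes by Ensembl dog gene IDs only, and 0 of the 32220 IDs could be matched to a symbol with the gene name table at hand. The labels fibroblast and neural stem cell-like could therefore not be checked against marker genes such as collagens or PAX6. Reads from the vectors or from mouse feeder cells were not separated from those of dog genes. Any of them that aligned to dog gene models are within the counts used here. In place of named genes, gene models were grouped by their level, number of exons, span on the genome, distance to the next model and chromosome. The grouping by distance and the ranking per kb were added after the data were seen. Coordinates are those of the build CanFam3.1.

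The fibroblast library held 33280017 counts and the iNSLC library 11699186. Levels are given as CPM, the counts of a gene relative to the library total, after scaling with TMM factors, which were 0.770 for fibroblasts and 0.980 for iNSLCs. A floor of 3 counts lay at 0.117 CPM in fibroblasts and at 0.262 CPM in iNSLCs, and lower values were set to it before a ratio was formed. Among counts from 1 to 10, 74.0% were even in the iNSLC library and 63.99% in the fibroblast library. Were both mates of a read pair counted, counting intervals would be too narrow, so that intervals were also computed on halved counts.

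Most genes stayed near the fibroblast level. At least 10 CPM in the higher of both libraries was found for 10237 genes, and 6665 of them (65.1%) lay within 2-fold. A level at least 4 times that of fibroblasts was seen for 814 genes in iNSLCs, which is 7.95% of the genes compared, and 582 genes (5.69%) were lower by the same fold. Higher genes thus made up 58.3% of those 4-fold apart. With library size as the only scaling there were 924 higher and 391 lower genes (70.3% higher), and the median log2 ratio of all genes compared moved from -0.21 to 0.16. Lower genes were the more numerous at a minimum of 50 CPM, with 284 higher and 362 lower, and at a fold of 2, with 1430 higher and 2142 lower. For scale, 62 genes were 4-fold apart by the same rule between iPSC clones 1 and 3, 318 between clones 1 and 2, and 363 between clones 2 and 3. These were 0.666%, 3.34% and 3.82% of the genes compared between clones, against 13.6% between iNSLCs and fibroblasts.

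**Figure D1:**
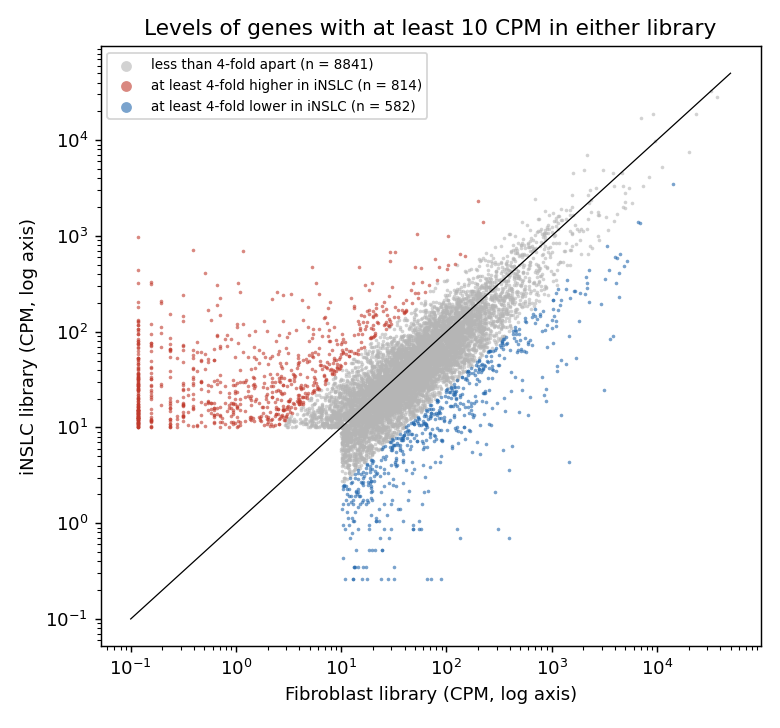
Level of each of the 10237 genes in the fibroblast library (horizontal) and the iNSLC library (vertical), both in TMM-normalized CPM on log axes, with values under 3 counts set to 3 counts and the line of equal levels. Higher genes (red, 814) spread to the left down to the fibroblast floor of 0.117 CPM, while lower genes (blue, 582) lie mostly below the dense cloud at high fibroblast levels.

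Losses and gains differed in size. Losses were mostly moderate, as 355 of the 582 lower genes were between 4-fold and 8-fold lower and 54 (0.527% of the genes compared) were at least 32-fold lower. Gains were often larger, as 235 of the 814 higher genes were between 4-fold and 8-fold higher, 350 (3.42% of the genes compared) were higher by 32-fold or more and 285 by 64-fold or more. The floor of the shallower iNSLC library limits how far a loss can be followed, but few losses reached it. Only 11 of the 582 lower genes had under 3 counts in iNSLCs, against 146 of the 814 higher genes in fibroblasts. With the floor of 0.262 CPM used for both libraries, an alternative added after the data were seen, 202 genes in place of 285 were higher by 64-fold or more, and 19 were lower by as much with either floor. The numbers at 32-fold cannot change with this floor, since the higher library has at least 10 CPM. The library with the higher level held at least 115 counts of each higher gene and at least 263 of each lower gene, while the other library could be at the floor. The 95% counting interval of the ratio (exact binomial) stayed beyond 4-fold for 729 of the 814 higher and 459 of the 582 lower genes, and with halved counts for 688 and 414. Close to the threshold, 62 higher genes had a fold from 4 to 4.5 and 57 genes one from 3.5 to 4, while among lower genes these numbers were 89 and 156.

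Losses were most frequent among abundant genes and gains among those of low level. Of the 413 genes that reached 500 CPM in the higher library, 86 (20.8%) were lower in iNSLCs by 4-fold or more and 14 (3.39%) higher. Of the 1901 genes between 10 and 20 CPM in the higher library, 102 (5.37%) were lower and 284 (14.9%) higher. Sorting genes on the level in the same libraries favours a loss where the fibroblast level was high, so the sort was also made on iNSLCs. Of 353 genes with at least 500 CPM in fibroblasts, 86 (24.4%) were at least 4-fold lower in iNSLCs, whereas of 240 genes with at least 500 CPM in iNSLCs, 14 (5.83%) were at least 4-fold lower in fibroblasts. At 1000 CPM these numbers were 53 of 151 fibroblast genes (35.1%) and 3 of 105 iNSLC genes (2.86%).

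The same order was found when levels were divided by the exonic length, which allows genes to be compared with each other. Among the 500 genes with the highest CPM per kb in fibroblasts (at least 191 CPM per kb), 92 were at least 4-fold lower in iNSLCs and 293 lay within 2-fold. Among the 500 with the highest CPM per kb in iNSLCs (at least 151 CPM per kb), 37 were at least 4-fold higher than in fibroblasts and 352 lay within 2-fold. These 37 genes (7.40%) are close to the 7.95% of all genes compared, and the 352 genes to the 65.1% of all genes within 2-fold, whereas the 92 lower genes (18.4%) stand beside 5.69% of all genes.

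**Figure D2:**
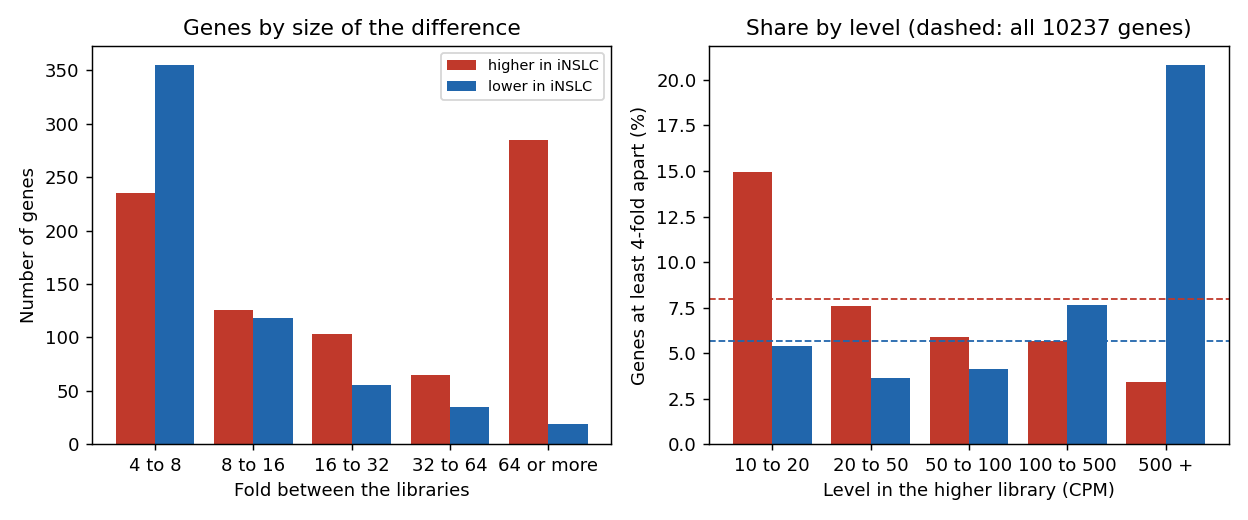
Left, number of genes higher (red) or lower (blue) in iNSLCs by the fold between both libraries. Right, percent of genes at least 4-fold higher or lower by the CPM in the higher library, with dashed lines at 7.95% (higher) and 5.69% (lower) for all genes compared. Lower genes outnumber higher genes between 4-fold and 8-fold (355 against 235) and at 500 CPM or more (86 against 14).

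The 582 lower genes took 16.4% of all counts in fibroblasts and 2.89% in iNSLCs. The 814 higher genes took 0.410% in fibroblasts and 5.85% in iNSLCs. In the iPSC clones the lower genes took 2.37%, 1.94% and 2.15% of the counts and the higher genes 5.03%, 4.24% and 4.49%, in the order of clones 1 to 3.

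Levels in the clones lay between fibroblasts and iNSLCs for the median of the higher genes, and below iNSLCs for that of the lower genes. These groups were chosen on the fibroblast and iNSLC libraries, and any comparison of the clones with either uses the same libraries again, so levels are given for each library on its own and were not tested. The median of the higher genes was 1.29 CPM in fibroblasts, 29.8 CPM in iNSLCs, and 16.2, 13.6 and 15.03 CPM in clones 1 to 3, a mean of 14.9 ± 1.26 CPM (SD, n = 3). At least 10 CPM was reached by 117 of these 814 genes in fibroblasts (14.4%), and by 485, 465 and 462 in the clones (59.6%, 57.1% and 56.8%). The median of the lower genes was 82.9 CPM in fibroblasts, 10.9 CPM in iNSLCs, and 9.37, 9.34 and 8.14 CPM in the clones, a mean of 8.95 ± 0.700 CPM (SD, n = 3). Of these 582 genes, 305 (52.4%) still had at least 10 CPM in iNSLCs, against 274, 279 and 262 in the clones (47.1%, 47.9% and 45.0%). Over all 10237 genes the medians of the 5 libraries lay between 33.9 and 40.9 CPM. The share of all 10237 genes with at least 10 CPM was 89.4% in fibroblasts, 91.3% in iNSLCs, and 82.9%, 81.6% and 79.0% in the clones. Per kb of exon, the medians of the higher genes were 0.522 CPM per kb in fibroblasts and 13.04 CPM per kb in iNSLCs, and those of the lower genes 33.1 and 4.38 CPM per kb.

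In single genes, the levels of the clones were at times far from those of iNSLCs. The genes with the largest gain and the largest loss in CPM are named, among those 4-fold apart whose exons overlap no other model. Other genes gained more CPM at a smaller fold. ENSCAFG00000004617 (chromosome 1, 110525865 to 110527644, minus strand, 3 exons) had the largest gain by this rule. Fibroblasts had 199 CPM of it against 2331 CPM in the iNSLC library, with 26.0, 7.39 and 33.1 CPM in the clones. The fold was 11.7 (counting interval 11.4 to 12.1). Its clone levels, a mean of 22.1 ± 13.3 CPM (SD, n = 3), were below both other libraries.

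ENSCAFG00000006073 (chromosome 25, 3167202 to 3209414, plus strand, 44 exons) came next. Fibroblasts had 222 CPM of it against 1383 CPM in the iNSLC library, with 0.155, 3.38 and 0.0540 CPM in the clones. Clones 1 and 3 held only 5 and 2 counts of it. The fold was 6.22 (counting interval 6.03 to 6.41). Both of these genes were thus already well expressed in fibroblasts, and both were lower in every clone than in fibroblasts.

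The largest loss by the same rule was that of ENSCAFG00000004529 (chromosome 2, 19670545 to 19679493, minus strand, 9 exons). It had 14102 CPM in fibroblasts against 3469 CPM in the iNSLC library and 1878, 1016 and 2244 CPM in the clones. It lay close to the threshold, with a fold of 4.06 (counting interval 4.02 to 4.11), and it was under 4-fold with each of the 4 other scalings, where its log2 ratio lay between -1.67 and -1.98. The next was ENSCAFG00000019521 (chromosome X, 122061570 to 122083141, plus strand, 47 exons). It had 6943 CPM in fibroblasts against 1367 CPM in the iNSLC library and 1175, 727 and 933 CPM in the clones. The fold was 5.08 (counting interval 4.998 to 5.16, log2 ratio -2.34), and it was just under 4-fold when libraries were scaled by their size only. In these genes the iNSLC level was above that of every clone.

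**Figure D3:**
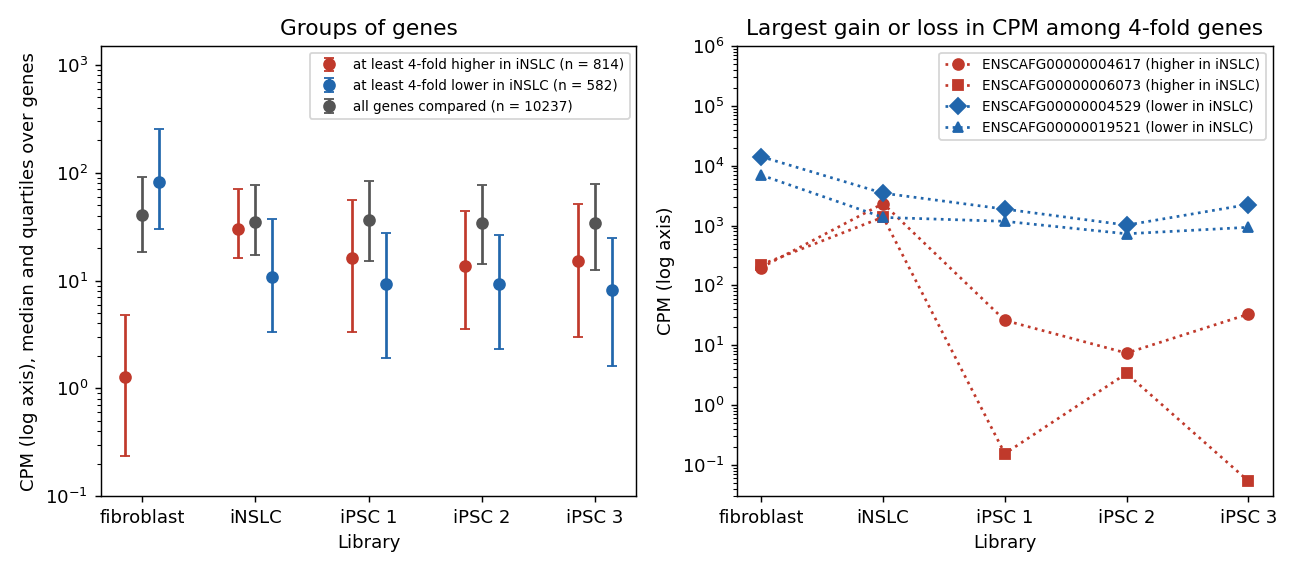
Levels in the 5 libraries in CPM on log axes. Left, median (point) and quartiles (bars) over the 814 higher genes, the 582 lower genes and all 10237 genes; right, the 4 genes with the largest gain or loss in CPM among those 4-fold apart without exon overlap, joined by dotted lines for reading only. The higher genes have a median of 1.29 CPM in fibroblasts against 29.8 CPM in the iNSLC library, and the named higher genes lie at 33.1 CPM or less in the clones.

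Genes near 0 in fibroblasts alone of both libraries were more numerous than genes near 0 in iNSLCs alone. At least 10 CPM in iNSLCs with fewer than 3 counts in fibroblasts was found for 146 of the 10237 genes compared. Of these 146 genes, 84 had 0 counts in fibroblasts. Their levels in iNSLCs ran from 10.03 to 436 CPM with a median of 19.3 CPM. They lay on 38 chromosomes, 69 had 10 or more exons, and 11 had a single exon. Of all 10237 genes compared, 5742 had 10 or more exons and 439 a single exon. In the clones 71, 61 and 67 of the 146 genes had at least 10 CPM, 49 had it in every clone and 63 in none. The shares of all genes compared with at least 10 CPM were 82.9%, 81.6% and 79.0% in clones 1 to 3. In 5 of the 146 genes every clone had fewer than 3 counts. Medians over the 146 genes were 9.41, 7.41 and 8.74 CPM in clones 1 to 3.

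Only 11 of the 10237 genes compared, on 11 chromosomes, had at least 10 CPM in fibroblasts while iNSLCs had fewer than 3 counts. Their fibroblast levels ran from 10.9 to 88.5 CPM with a median of 23.8 CPM, and 7 had 0 counts in iNSLCs. The number depends on depth, since 3 counts stand for 0.262 CPM in iNSLCs and 0.117 CPM in fibroblasts. With the limit of 0.262 CPM for both, the numbers were 223 and 11. In the clones, 10 of the 11 stayed under 10 CPM. The exception, a model of 18 exons on chromosome 5 (32878426 to 32887532), was singled out after its values were seen. It had 65.2 CPM in fibroblasts, 2 counts in iNSLCs, and 17.1, 2.40 and 10.2 CPM in the clones, so clones 1 and 3 lay between both.

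The share of gains differed between classes of gene structure. Only 117 of the 814 higher genes had at least 10 CPM in fibroblasts, so most were compared only because of their iNSLC level. Of the 582 lower genes, 305 had at least 10 CPM in iNSLCs. The shares by span, distance and number of exons below carry this selection, describe the genes compared and were not tested. Of 556 genes that span over 200 kb, 113 (20.3%) were higher in iNSLCs by 4-fold or more, against 7.95% of all genes compared, and 26 (4.68%) were lower. In the 62 genes over 500 kb these shares were 27.4% and 6.45%. Very long genes are known to be frequent among those for cell adhesion, ion channels and synapses, which are used in neural tissue, but which of these they were could not be told without symbols. At the other end, 125 of 740 genes with a span of up to 2 kb (16.9%) were higher and 38 (5.14%) lower. Genes between 10 and 50 kb had the smallest share of gains, at 5.33% of 4372.

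The distance to the next gene model also separated the genes. Of 369 genes more than 50 kb away from any other model, 77 (20.9%) were higher in iNSLCs and 34 (9.21%) lower. Of 1051 genes with a neighbour within 1 kb, 54 (5.14%) were higher and 42 (3.996%) lower. Genes that stand alone in wide intervals often code for regulators of development, as is known from mammalian genomes. Genes that were both over 200 kb long and over 50 kb from the next model were few, and 15 of these 36 were higher (41.7%) and 3 lower. Among the 8636 genes with none of these features, which had several exons, a span from 2 to 200 kb and a neighbour within 50 kb, 528 (6.11%) were higher and 489 (5.66%) lower.

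Among long and isolated genes, gains were most frequent at low levels. A gene near 0 in 1 library enters the comparison only by its level in the other. For genes over 200 kb the share of higher genes was 32.03% between 10 and 20 CPM (41 of 128), 23.1% between 20 and 50 CPM (40 of 173), 13.3% between 50 and 100 CPM (16 of 120) and 12.7% between 100 and 500 CPM (15 of 118). The same classes of all genes had 14.9%, 7.57%, 5.87% and 5.69%, so that the long genes were above them in each. In genes more than 50 kb from the next model the shares were 34.6%, 19.1%, 18.7% and 16.5%. At 500 CPM or more losses prevailed. Of 17 long genes 6 were lower and 1 higher, and of 15 isolated genes 7 were lower and 0 higher, with 20.8% lower among all genes of that level.

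Genes with a single exon were also often higher, with 71 of 439 (16.2%) higher by 4-fold or more and 27 (6.15%) lower. The share of higher genes was 11.2% with 2 to 4 exons, 6.56% with 5 to 9 and 7.12% with 10 or more. Genes of several exons within 2 kb had a similar share, with 60 of 334 (18.0%) higher. Nuclear single-exon models took 1.68% of the counts in fibroblasts, 2.46% in iNSLCs and from 1.84% to 1.99% in the clones. Such models include intronless genes, copies of processed messages and small RNAs, and the files do not tell them apart. Without all single-exon models there were 743 higher and 555 lower genes. Models under 200 bp of exon were few, as 8 of 32 were higher and 4 lower.

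**Figure D4:**
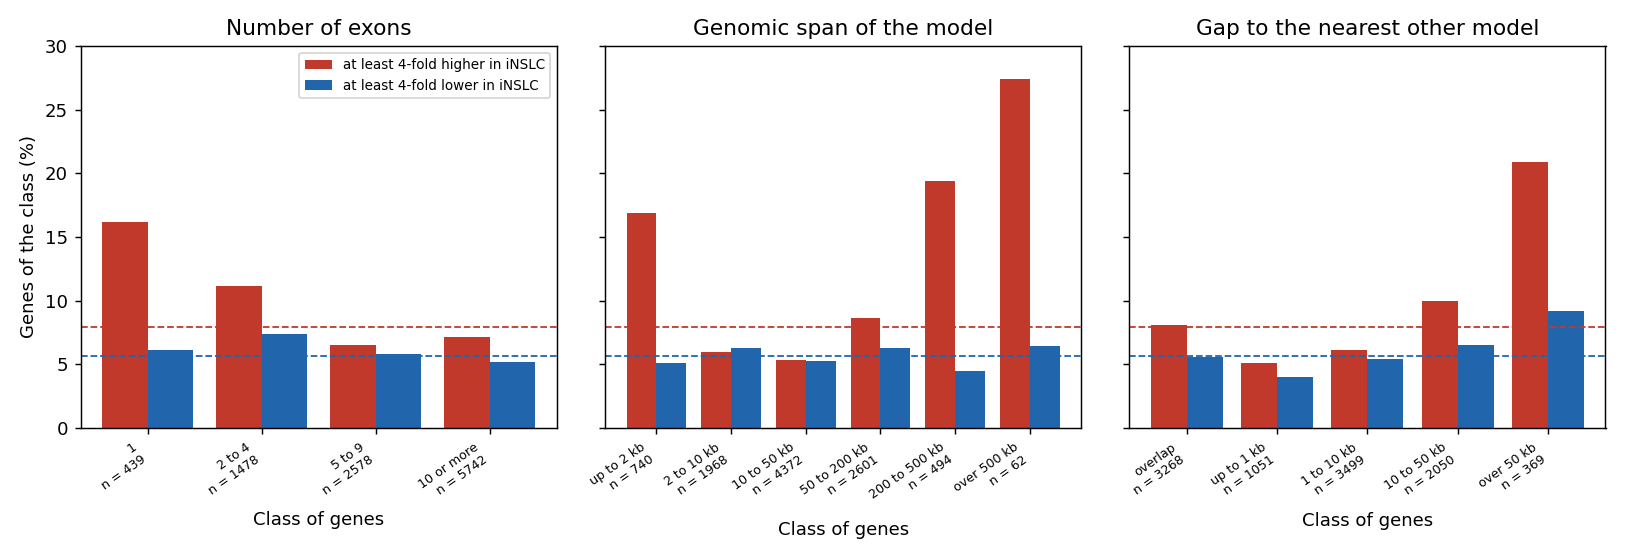
Percent of genes at least 4-fold higher (red) or lower (blue) in iNSLCs by number of exons, genomic span and gap to the nearest other gene model, with the number of genes per class under each pair of bars and dashed lines at 7.95% and 5.69% for all genes. Gains are frequent in genes over 500 kb (27.4%), from 200 to 500 kb (19.4%), up to 2 kb (16.9%) or more than 50 kb from the next model (20.9%), while losses range from 3.996% to 9.21% over the classes.

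Gains and losses were spread over the genome. On 30 of 39 nuclear chromosomes more genes were higher than lower, on 7 more were lower, and on 2 the numbers were equal. The largest shares of higher genes were on chromosome 35, with 14 of 92 (15.2%) and 2 lower, and on chromosome X, with 45 of 344 (13.1%) and 22 lower. The smallest was on chromosome 6, with 21 of 500 (4.20%) and 28 lower. Chromosome 14 had the largest share of lower genes, 21 of 176 (11.9%). Of the 14 higher genes of chromosome 35, 4 had a single exon and 3 of these at most 500 bp.

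Mitochondrial transcripts, some of which code for parts of the respiratory chain, were lower in iNSLCs than in fibroblasts. Each of the 16 mitochondrial models compared had a lower level, with a median log2 ratio of -1.18 and a range from -0.29 to -1.65, and 10 were at least 2-fold lower. These ratios are given with TMM scaling only. Library size alone gives higher ratios, with a median of 0.16 in place of -0.21 over all genes compared. It moved the log2 ratio of ENSCAFG00000004617 from 3.55 to 3.90 and shifts all genes alike. The mitochondrial model at -0.29 would then not stay below 0, so the statement on all 16 models holds for TMM scaling. With 0 at 4-fold, the mitochondrial models are not among the 582 lower genes. Their share of the counts was 4.33% in fibroblasts (Clopper-Pearson interval 4.32 to 4.33%) and 2.48% in iNSLCs (2.47 to 2.49%). In clones 1 to 3 it was 6.05%, 9.99% and 6.79%, above both, so that iNSLCs had the lowest share of the 5 libraries.

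Genes with the same change were at times neighbours. A neighbour among the genes compared that was also at least 4-fold higher was found for 179 of the 814 higher genes (22.0%), where 15.2% of all genes compared had such a neighbour. For lower genes the numbers were 101 of 582 (17.4%) and 10.98%. There were 10 runs of at least 3 neighbours that were higher, with 35 genes, and 3 runs that were lower, with 11 genes. Models that were not compared can lie between the genes of a run. The longest run, on chromosome 22, had 3 higher genes over 9743 kb, with 47 models in its span. Neighbouring models of related genes can share reads, which was not tested beyond the overlap of exons.

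A run of 5 higher genes lay on chromosome X between 84351485 and 85789759, where the files have 13 models in all. Their fibroblast levels ran from 0 to 6.32 CPM and their iNSLC levels from 12.8 to 44.8 CPM. In the clones their levels differed. The gene of 36 exons at 84773778 to 84825410 was highest in the clones, with 6.13 CPM in fibroblasts against 25.4 CPM in the iNSLC library and 54.8, 56.8 and 46.7 CPM in the clones. The gene of 22 exons at 84408987 to 84517827 had 0 counts in fibroblasts, with 15.4 CPM in the iNSLC library and 0.896, 0.667 and 0.270 CPM in the clones. The gene at 84351485 to 84377324 separated the clones, with 2.19 CPM in fibroblasts against 32.8 CPM in the iNSLC library, 36.9 and 38.8 CPM in clones 1 and 3, and 2.14 CPM in clone 2.

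On chromosome 32 a run of 4 higher genes, all on the plus strand, spread over 3518 kb from 13125612 to 16644018. That span holds 18 models in all. The gene at 13125612 to 13185077 had 0.234 CPM in fibroblasts against 62.2 CPM in the iNSLC library, with 52.9, 4.14 and 43.0 CPM in the clones. Its neighbour at 13492936 to 13494327 had 0.390 CPM in fibroblasts against 53.5 CPM in the iNSLC library, but 0.309, 8.90 and 1.22 CPM in the clones. Clone 2 was thus the lowest of the clones for the former and the highest for the latter.

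A run of 3 genes on chromosome 2 (65639667 to 65978472) was chosen for its levels after they were seen, and the exons of 1 of its models overlap another model. Its gene at 65974968 to 65978472 had 0 counts in fibroblasts and 130 CPM in iNSLCs, at least 1114-fold higher with the fibroblasts at the floor of 3 counts. It had 20.8, 6.23 and 49.9 CPM in the clones. The gene next to it, 65895935 to 65974869 on the opposite strand, also had 0 counts in fibroblasts, with 14.2 CPM in the iNSLC library and 1.39, 0 and 3.02 CPM in the clones. The third, at 65639667 to 65777731, had 20.02 CPM in fibroblasts against 163 CPM in the iNSLC library and 175, 116 and 167 CPM in the clones. It lay near the iNSLC level in clones 1 and 3, while the other two were lower in every clone than in iNSLCs.

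The remaining run of 5 higher genes, on chromosome 18 (46206173 to 46334973), had a median of 0.0390 CPM in fibroblasts against 27.2 CPM in the iNSLC library, and 3 of its models are shorter than 100 bp. Medians in the clones were 0.773, 0.979 and 1.11 CPM.

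Among runs of lower genes, 4 genes on chromosome 3 (52033940 to 52249292) had the highest fibroblast levels. The gene of 9 exons at 52054885 to 52064689 had 1705 CPM in fibroblasts against 53.6 CPM in the iNSLC library and 29.4, 24.5 and 49.3 CPM in the clones, a fold of 31.8 at the first step. It lies within the span of a model on the opposite strand (52054684 to 52069311), whose exons it does not overlap. That model had 267 CPM in fibroblasts against 10.7 CPM in the iNSLC library and 6.37, 4.94 and 10.5 CPM in the clones. The gene at 52033940 to 52042064 had 147 CPM in fibroblasts against 13.5 CPM in the iNSLC library and 11.01, 10.1 and 26.6 CPM in the clones. The gene of 11 exons at 52151135 to 52249292 had 271 CPM in fibroblasts against 43.6 CPM in the iNSLC library and 10.9, 7.61 and 8.32 CPM in the clones. All 4 genes were far below fibroblasts in iNSLCs. All but the gene at 52033940 to 52042064, which had 26.6 CPM in clone 3, were lower again in each clone.

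The other 4 lower genes in a run, on chromosome 14 (55437590 to 55712194), had fibroblast levels from 23.2 to 355 CPM and iNSLC levels from 0.698 to 20.3 CPM, with medians of 3.52, 4.05 and 2.09 CPM in the clones. The exons of 2 of these models overlap. The shortest run held 3 single-exon models of 117 to 159 bp within 0.847 kb of chromosome 18 (51767750 to 51768596). They had from 29.2 to 32.4 CPM in fibroblasts and from 4.01 to 7.06 CPM in iNSLCs, and medians of 14.4, 17.5 and 18.8 CPM in the clones, so that this group was lowest in iNSLCs.

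**Figure D5:**
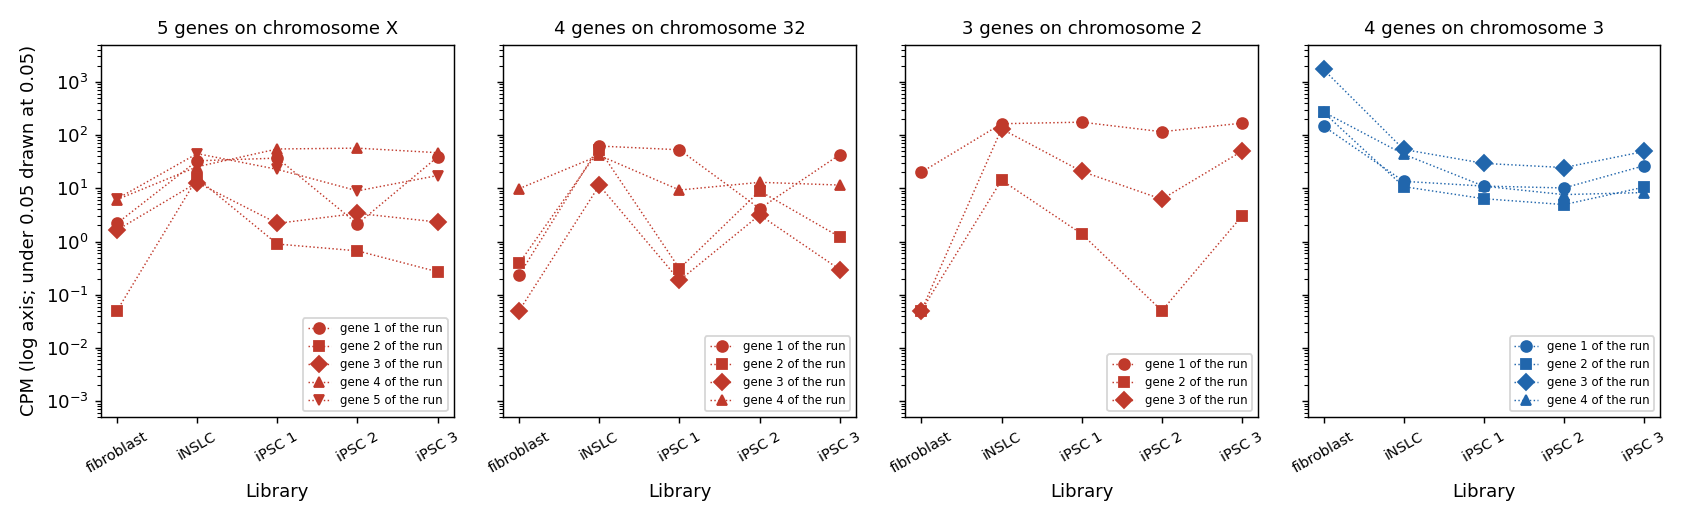
Levels of the genes of 4 runs of neighbours in the 5 libraries, in CPM on a log axis, numbered by position within the run, with values under 0.05 CPM drawn at 0.05 and dotted lines for reading only. The higher runs on chromosomes X, 32 and 2 are above fibroblasts in iNSLCs and differ in the clones, while the 4 lower genes of chromosome 3 lie between 147 and 1705 CPM in fibroblasts and between 10.7 and 53.6 CPM in the iNSLC library.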

How the data were processed

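Per the labels, the libraries were made from total RNA of cultured dog cells. The authors deposited unnormalized read counts for each gene model. The submitters' processing notes name featureCounts 1.5.2, STAR 2.5.3a, Trim Galore 0.4.0 and the build CanFam3.1. How strand and multi-mapping reads were handled is not given there. The table of the series and the 5 single tables held the same counts, with 0 differing values.

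Here CPM were scaled with TMM factors from edgeR 4.0.16 in R 4.3.3 over all 5 libraries, computed on 17479 genes kept by filterByExpr. Ratios were formed in Python 3.11.15 where the higher library reached 10 CPM, with values under 3 counts set to 3 counts, and genes at least 4-fold apart were counted. This rule was tested on simulated counts with known scaling. That test covers neither the choice of scaling nor differences between replicate libraries. It also held no changes near 4-fold and none in genes near 10 CPM. Intervals (95%) cover counting error only. With 1 library per stage there was no test and no p-value. Other scalings were DESeq2 1.42.0 size factors, upper quartile, library size only and TMM over both compared libraries.

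IDs were named by the largest gain and loss in CPM, 2 per direction, among genes 4-fold apart whose exons overlap no other model. Runs were at least 3 neighbours among the genes compared, and those with the most genes are described, with a run on chromosome 2 and the short one on chromosome 18 added after their values were seen. The table of dog gene names (UU_Cfam_GSD_1.0, 43286 rows) matched 0 IDs, so the marker lists could not be used and no sequence is shown. The comparison, gene groups and lists were chosen with earlier results of these data known.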

Additional observations from a re-analysis of the deposited data

How the results depend on the processing

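No paired analysis was possible because fibroblasts and iNSLCs had 1 library each and no test was made. The median log2 ratio of all genes compared was -0.21 with TMM, -0.17 with DESeq2 size factors, -0.07 with TMM over both libraries only, 0.00 with upper-quartile scaling and 0.16 by library size alone. The share of higher genes among those 4-fold apart, 58.3%, moved with it to 60.3%, 62.5%, 65.2% and 70.3%. It was between 62.4% and 62.6% when an iPSC clone was left out of the scaling, with 848 to 862 higher and 512 to 514 lower genes. The direction of this share turned at a minimum of 50 CPM (44.0%, with 284 higher and 362 lower genes, 118 and 27 at 32-fold) and at a fold of 2 (40.0%, with 1430 and 2142). At a fold of 8 it was 71.8%, with 227 lower genes, and without a minimum level 73.1%, with 2551 higher and 938 lower genes and 576 at least 32-fold higher. Genes near 0 in fibroblasts alone, 146 in the report, numbered 28 at 50 CPM and 84 with 0 counts in fibroblasts. They numbered 223 with a common floor in CPM and 197 with halved counts. Genes near 0 in iNSLCs alone, 11 in the report, numbered 3 at 50 CPM, 7 with 0 counts and 19 with halved counts. The median log2(CPM + 1) of the clones, 3.99 for higher and 3.31 for lower genes, was 4.33 and 3.14 with library size only. Among models of at least 200 bp the mitochondrial share in fibroblasts was 4.32% instead of 4.33%. Removing overlapping models, models under 200 bp or (added after the data were seen) single-exon models kept both numbers of 4-fold genes within 1.5 times. The shares of long, isolated, single-exon and abundant genes stayed above those of all genes in each of 20 comparisons under other scalings or 50 CPM, which were also added later, while runs of higher genes went from 10 to 1 at 50 CPM and runs of lower genes from 3 to 5.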

Other observations

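Models under 200 bp of exon took 0.239% of the counts in fibroblasts, 0.311% in iNSLCs, and 0.265%, 0.280% and 0.383% in the iPSC clones, so that the iNSLC share lay within the range of the clones. Models that span over 200 kb took 3.66% in fibroblasts and 3.89% in iNSLCs, against 3.52%, 2.96% and 2.63% in the clones. At least 10 CPM was reached by 9342 genes in iNSLCs and 9147 in fibroblasts, and by 8652 to 9021 in the clones.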
